A study of Homo sapiens with 4 samples.

Results

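The control state of ACHN cells was described from the 2 libraries labelled siNC, of 4 in the series, across the 36359 gene rows of the deposited tables. ACHN is an established cell line of human renal cell carcinoma, grown here in MEM with serum and antibiotics. The siNC cells received a control siRNA through Lipofectamine 3000, so their transcriptome is that of transfected cultures and not of untouched ones, and 1 line stands for 1 tumor. The other samples of the series received siPRR11 and were not used. Total RNA was extracted with TRIzol and made into libraries with a stranded mRNA kit. The labels number the libraries as replicates without saying that they came from separate cultures, so the spread between them may be technical, and with 1 group no p-value is given. A level is in RPKM, counted reads scaled to exonic length and to the total of the library, and is written as the value of library 1, the value of library 2 and their mean ± SD (n = 2).

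The nephron filters blood at the glomerulus, whose podocytes form the filter, and then recovers water, salts, sugar and proteins along the proximal tubule, the loop of Henle, the distal tubule and the collecting duct. Each segment carries its own transporters, and transcription factors such as PAX8 and PAX2 shape the tubule during development. Injured tubule cells are known to switch on HAVCR1, VIM and simple keratins, and most renal cell carcinomas are held to arise from tubule epithelium.

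The libraries held 83068637 and 59003839 counted reads. Counts were above 0 for 28889 genes in library 1 and 27649 genes in library 2, and 13869 and 13823 genes reached 1 RPKM. On the mean, 13829 of 36359 genes (38.0%) reached 1 RPKM. As RefSeq classes them, 10332 of 17056 protein-coding genes (60.6%) and 422 of 1801 long noncoding genes did. These shares are the background for the counts of list members given below. On 1000 exonic bases, 1 count was worth 0.0120 RPKM in library 1 and 0.0169 RPKM in library 2. A gene with 0 counts was therefore given the level that 3 counts would have had as its upper limit, and these limits cover counting error only.

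Levels ran from 0 to 9949 RPKM for MT-ATP6. Both libraries had 0 counts for 5430 genes (14.9%), and 9393 genes lay above 0 and below 0.1 RPKM. A further 7707 genes lay from 0.1 to below 1, 9481 from 1 to below 10, 3920 from 10 to below 100, 399 from 100 to below 1000, and 29 at 1000 RPKM or more. The 25 highest genes held 24.6% of all RPKM in library 1 and 24.5% in library 2. Genes of the mitochondrial genome held 21.2% and 21.8% of the summed RPKM but 4.99% and 4.96% of the counts, since these transcripts are short.

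The bases in front of 7 genes are shown because they span the range of levels described next, from the highest nuclear gene to genes at or near 0, and because they differ in their number of CG pairs. Each is 150 bases long, ends at the base before the transcript start given by RefSeq, is written 5′ to 3′ on the strand of its gene from GRCh38.p14, and has its CG pairs in capitals. The genes were chosen after their values had been seen. TMSB10 (chr2:84905506-84905655, plus strand) and COL4A1 (chr13:110307158-110307307, minus strand) were abundant and held 20 and 22 CG pairs. LRP2 (chr2:169362535-169362684, minus strand) was near 0 and held 13. IGFN1 (chr1:201190674-201190823, plus strand) and HAVCR1 (chr5:157059117-157059266, minus strand) were abundant with 3 and 2 pairs. AQP2 (chr12:49950587-49950736, plus strand) and SLC7A9 (chr19:32869768-32869917, minus strand) were near 0 or at 0 with 5 and 1 pairs.
TMSB10: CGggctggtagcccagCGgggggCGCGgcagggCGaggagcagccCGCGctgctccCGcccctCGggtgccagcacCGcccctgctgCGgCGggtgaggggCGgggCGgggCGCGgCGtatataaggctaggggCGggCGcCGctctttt
COL4A1: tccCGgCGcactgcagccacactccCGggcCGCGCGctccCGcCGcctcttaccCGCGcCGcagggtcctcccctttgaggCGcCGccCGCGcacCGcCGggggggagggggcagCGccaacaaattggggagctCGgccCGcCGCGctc
LRP2: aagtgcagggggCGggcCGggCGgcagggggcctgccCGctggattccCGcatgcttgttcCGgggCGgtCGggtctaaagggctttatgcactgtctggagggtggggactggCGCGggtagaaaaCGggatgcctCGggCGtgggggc
IGFN1: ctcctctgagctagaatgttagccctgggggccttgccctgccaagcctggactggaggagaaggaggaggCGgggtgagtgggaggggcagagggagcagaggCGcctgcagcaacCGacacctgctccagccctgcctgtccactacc
HAVCR1: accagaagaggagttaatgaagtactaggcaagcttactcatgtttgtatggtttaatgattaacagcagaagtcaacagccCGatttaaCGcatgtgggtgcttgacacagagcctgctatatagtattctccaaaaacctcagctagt
AQP2: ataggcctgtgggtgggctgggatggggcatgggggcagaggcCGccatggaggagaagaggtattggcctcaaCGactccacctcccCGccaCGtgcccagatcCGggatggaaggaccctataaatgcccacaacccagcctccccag
SLC7A9: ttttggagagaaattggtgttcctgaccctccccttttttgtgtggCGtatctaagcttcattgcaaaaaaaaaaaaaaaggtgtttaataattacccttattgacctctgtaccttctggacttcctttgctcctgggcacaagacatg

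Mitochondrial transcripts led the list. MT-ATP6, a subunit of ATP synthase, stood at 10137 and 9762 RPKM (9949 ± 265), and MT-CO3, a subunit of cytochrome c oxidase, at 8836 and 8828 RPKM (8832 ± 5.35). The other mitochondrial genes among the 25 highest were MT-ATP8, MT-RNR2, MT-ND4L, MT-ND4, MT-ND1, MT-CO1, MT-ND6, MT-ND5, MT-CO2, MT-ND2, MT-ND3, MT-CYB and the tRNA genes MT-TC, MT-TY, MT-TN and MT-TA, with means from 1392 RPKM for MT-CYB to 6288 RPKM for MT-ATP8. All 13 proteins encoded in that genome were therefore above 1000 RPKM. MTATP6P1, a nuclear copy of MT-ATP6 on chromosome 1, was listed at 2667 ± 84.6 RPKM, a level that is uncertain, since how reads were assigned between it and its near-identical source is not given in the sources used here.

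Among the 25 highest were also short genes that lie in the exons of others. MIR1282 (1617 ± 47.8 RPKM) lies on the strand opposite SERF2, and RP11-290D2.6 (1410 ± 84.9 RPKM) lies opposite TPT1. RP11-761B3.1 stood at 1331 ± 49.1 RPKM. In all, 1155 genes were wholly covered by exons of other genes, and 1080 of these had counts, among them 489 of the 529 that are covered only from the opposite strand. Reads in shared bases were thus present in the counts of more than 1 gene or strand, and the levels of the 5705 genes (15.7%) with over 20% of their exonic bases shared are uncertain. Such genes are marked as overlapped where they are named.

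Of the nuclear protein-coding genes with at most 20% of their bases shared, TMSB10 was far above the rest. This gene codes for thymosin beta 10, which binds actin monomers, and stood at 8014 and 6737 RPKM (7375 ± 902), whereas its relative TMSB4X, chosen after its value had been seen, stood at 174 and 188 RPKM (181 ± 9.74). The next was the chaperone HSP90AB1 at 1315 and 1266 RPKM (1290 ± 35), and it did not overlap the range of NDUFS5, a subunit of respiratory complex I, at 1250 and 1193 RPKM (1221 ± 40.1). RPL23A (1144 and 1211 RPKM) and the RNA-binding factor YBX1 (1204 and 1129 RPKM) overlapped NDUFS5 and each other. Below them came MYH9, the heavy chain of nonmuscle myosin IIA, at 1055 and 924 RPKM, and EZR, the linker ezrin of microvilli, at 869 and 753 RPKM. ACTB, cytoplasmic beta actin, reached 783 and 701 RPKM and overlapped EZR.

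Genes with more specialised roles also stood in that order. IGFN1, an immunoglobulin and fibronectin domain protein known from skeletal muscle, had 948 and 1008 RPKM (978 ± 41.8), and with 954462 and 720249 counts it had more counts than any other gene. Its 12116 exonic bases on chr1:201190825-201228952 shared 0.735% with other genes. RARRES2, which codes for the secreted chemoattractant chemerin, had 989 and 952 RPKM (971 ± 25.9). MT2A, a metallothionein that binds zinc, had 879 and 677 RPKM (778 ± 143). ALDH1A1, an aldehyde dehydrogenase that makes retinoic acid, had 528 and 471 RPKM (499 ± 40.4).

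**Figure D1:**
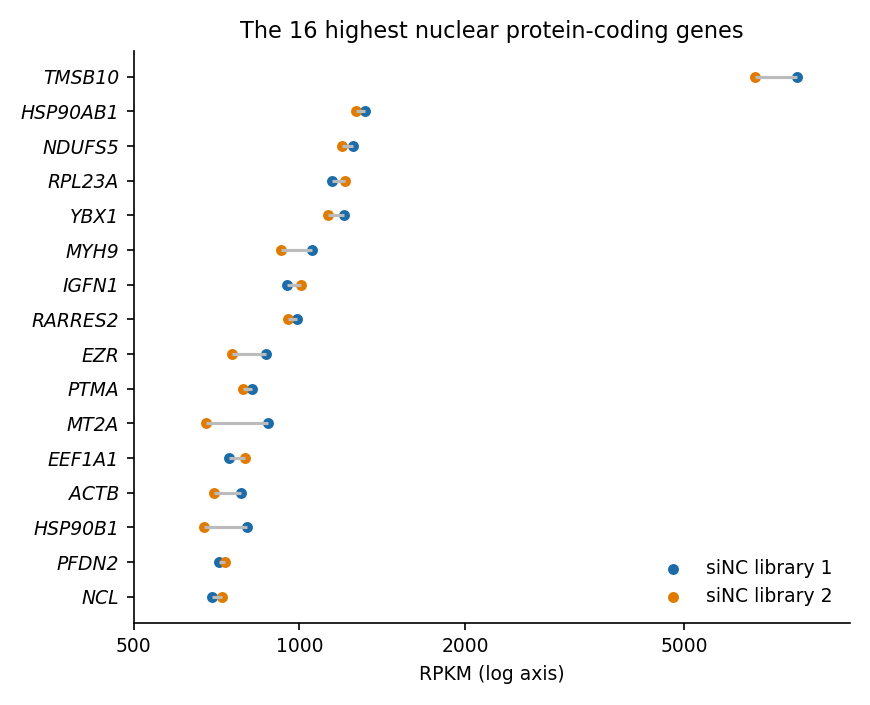
RPKM (log axis) of the 16 highest nuclear protein-coding genes with at most 20% of their exonic bases shared, 1 row per gene, with blue points for siNC library 1, orange points for siNC library 2 and a grey line between them. TMSB10 lies at 8014 and 6737 RPKM, apart from the other 15, which run from 1315 RPKM for HSP90AB1 in library 1 down to 672 RPKM for HSP90B1 in library 2.

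Chaperones of the endoplasmic reticulum were among these genes, with HSP90B1 at 803 and 672 RPKM and CALR, calreticulin, at 697 and 519.9 RPKM. Ribosomal proteins were detected in 82 of the 86 rows of that list, and RPL19 (584 ± 0.865 RPKM) was among them beside RPL23A. Of 21 glycolytic enzymes 17 reached 1 RPKM, led by GAPDH at 625 and 582 RPKM, ENO1 at 474 and 476 RPKM, PKM at 443 and 439 RPKM and LDHB at 336 and 361 RPKM. GAPDH carries an antisense gene, RP5-940J5.9, that was wholly covered by other exons and was listed at 1154 ± 68.4 RPKM. PRR11, the gene that the study is about, stood at 9.95 and 9.72 RPKM (9.83 ± 0.162), rank 4411 of all genes.

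The label of a renal line was then set against lineage genes. Of 23 transcription factors of nephron development, 10 reached 1 RPKM (43.5%), beside 38.0% of all genes and 60.6% of protein-coding genes. PAX8, which specifies the renal lineage and stays on in tubule epithelium, led at 49.8 and 37.4 RPKM (43.6 ± 8.82). POU3F3, a factor of the loop of Henle and distal nephron, had 11.6 RPKM in each library. PAX2 had 3.71 and 3.07 RPKM, and HOXD11 (overlapped) 2.37 and 3.31 RPKM. LHX1, a factor of the early nephron, had 2.06 and 3.06 RPKM. MECOM, SALL1, HNF4G and TFAP2A stood between 1.07 and 2.05 RPKM on the mean.

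The factors that define mature proximal tubule or other renal compartments were low in the same cells. HNF4A, the factor of proximal tubule maturation, had 23 and 8 counts, or 0.0379 and 0.0185 RPKM. The nephron progenitor factors SIX2 (0.567 ± 0.0139 RPKM) and OSR1 (0.556 ± 0.0412 RPKM) lay close together below 1 RPKM, and EYA1 had 2 counts in library 1 and 0 in library 2. GATA3, a factor of the collecting system, had 2 counts in each library. EMX2, WT1 and TFAP2B had 0 counts in both libraries, which allows up to 0.0156, 0.0124 and 0.00827 RPKM in library 2. The renal label was thus carried by PAX8, POU3F3, PAX2 and LHX1, while HNF4A and WT1, markers of proximal tubule and podocytes, were near or at 0.

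Segment markers were mostly low. Of 27 proximal tubule markers 8 reached 1 RPKM, led by the peptidase DPP4 at 16.3 and 14.9 RPKM, the bicarbonate transporter SLC4A4 at 11.1 and 11.7 RPKM, the brush border enzyme GGT1 at 9.81 and 7.63 RPKM and the scaffold PDZK1 at 5.03 and 6.29 RPKM. SLC5A2, the glucose transporter of the early proximal tubule, was listed at 8.27 and 6.39 RPKM, with 40.7% of its bases shared with a gene on the other strand. The defining endocytic receptors of this segment, named after their values had been seen, were near 0. LRP2, megalin, had 0 and 4 counts on 16260 exonic bases, and CUBN, cubilin, had 8 and 11 counts. AQP1 (overlapped), the water channel of the same segment, had 26 and 12 counts, and the cystine transporter gene SLC7A9 had 0 counts in both, which allows up to 0.0196 RPKM in library 2. The median of the 27 markers was 0.0391 RPKM, beside 0.274 RPKM for all genes and 2.06 RPKM for protein-coding genes.

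Markers of the later segments were scarcer. Of 13 markers of the loop of Henle and distal tubule, CLDN16, a tight junction protein of magnesium reabsorption, stood at 22.2 and 26.8 RPKM (24.5 ± 3.27), CDH16, kidney-specific cadherin, at 2.07 and 1.87 RPKM, and the other 11 below 1 RPKM. UMOD, uromodulin, had 2 counts in library 1 and none in library 2, and TRPV5 had 0 in both. CLDN16 and CLDN1 lie on opposite strands of chromosome 3 with 65 bases between them, and CLDN16 shares no exonic base with another gene. None of 16 collecting duct markers reached 1 RPKM, and HSD11B2 (0.534 ± 0.0870 RPKM), the enzyme that shields the mineralocorticoid receptor from cortisol, was their highest. AQP2, the vasopressin-regulated water channel, had 0 and 4 counts, and SCNN1B, FXYD4 and ATP6V0D2 had 0 in both. Of 7 podocyte markers SYNPO, which binds actin, had 23.1 and 21.6 RPKM and PODXL 4.20 and 4.08 RPKM, whereas NPHS1, nephrin of the slit diaphragm, had 8 and 4 counts.

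Markers of injured tubule and of tubule progenitors stood high. Of 15 members 12 reached 1 RPKM, and their median was 22.4 RPKM. SPP1, the secreted phosphoprotein osteopontin, was at 319.8 and 336 RPKM (328 ± 11.6), CD24, a surface glycoprotein, at 173 and 182 RPKM (178 ± 5.84), and HAVCR1, kidney injury molecule 1, at 83.8 and 94.2 RPKM (89.0 ± 7.32). CLU, clusterin, had 27.3 and 28.7 RPKM and the hyaluronan receptor CD44 21.8 and 22.9 RPKM. PROM1, which marks progenitors together with CD24, had 4 and 2 counts. The list shares KRT8, KRT18 and VIM with the filament lists described with the cytoskeleton.

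Of 18 markers used in renal cell carcinoma, 11 reached 1 RPKM (61.1%), near the 60.6% of protein-coding genes. NNMT, which methylates nicotinamide, was at 144 and 119 RPKM (132 ± 17.8), the fatty acid desaturase SCD at 65.2 and 74.4 RPKM, the receptor kinase MET at 47.2 and 57.4 RPKM and the glucose transporter SLC2A1 at 31.4 and 29.5 RPKM. KRT7, a keratin used to tell papillary and chromophobe from clear cell tumors, had 14.7 and 10.3 RPKM. CA9 (overlapped), the carbonic anhydrase that marks clear cell carcinoma with VHL loss and was named after its values had been seen, had 3 counts in library 1 and 0 in library 2. FABP7 had 0 counts in both libraries, which allows up to 0.0186 RPKM in library 2.

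**Figure D2:**
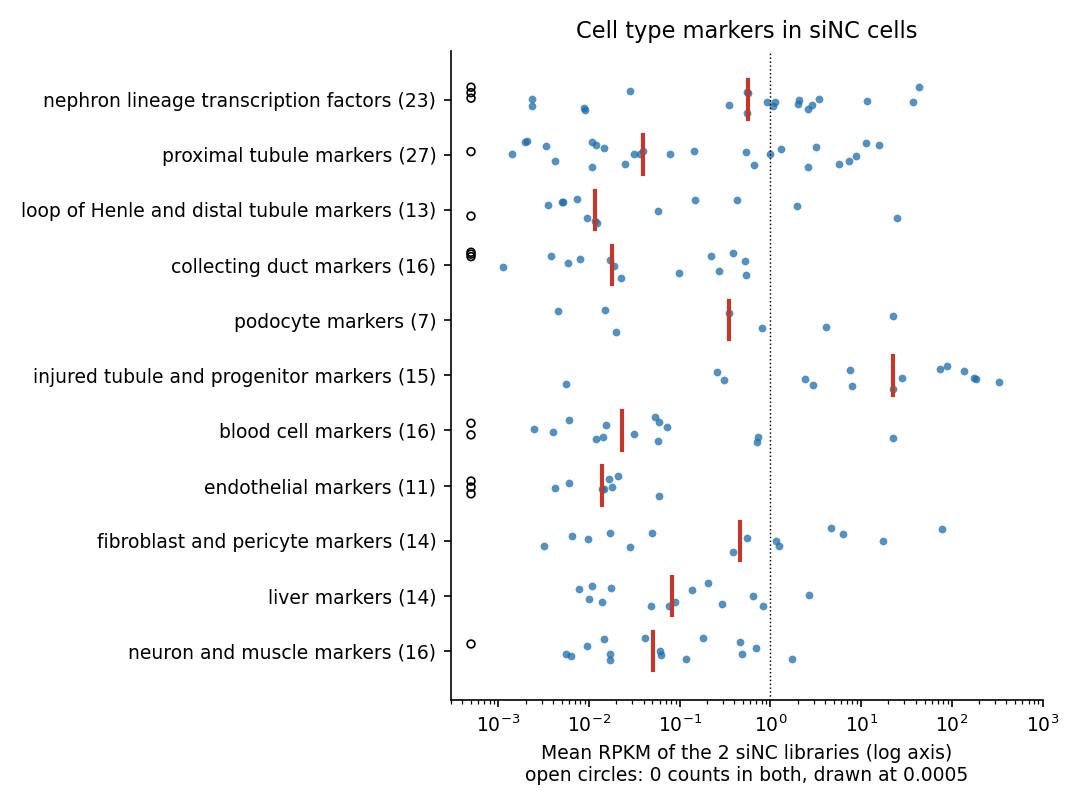
Mean RPKM over the 2 siNC libraries (log axis) of each member of 11 marker lists, with the number of members in parentheses, open circles for genes with 0 counts in both libraries, a red line at the median of each list and a dotted line at 1 RPKM. The median of the injured tubule list is 22.4 RPKM and that of every other list shown is below 1 RPKM, from 0.0116 RPKM for the loop of Henle and distal tubule to 0.567 RPKM for nephron transcription factors.

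Markers of cells outside the tubule were near 0 in most cases. Of 20 blood cell markers chosen, 16 had a row. Among these, CD68 (22.7 ± 3.42 RPKM), a lysosomal protein, was the only member above 1 RPKM, with 85.8% of its bases shared with other genes. PTPRC, the common leukocyte antigen, had 0 and 4 counts. None of 11 endothelial markers reached 0.1 RPKM, and CDH5, ERG and PLVAP had 0 counts in both libraries. In the fibroblast and pericyte list 6 of 14 members reached 1 RPKM, with THY1, a surface glycoprotein, at 81.4 and 76.3 RPKM and MCAM, an adhesion molecule, at 19.4 and 15.6 RPKM. The matrix protein DCN, which marks fibroblasts, had 4 and 2 counts, and LUM had 2 in each library. Among liver markers SERPINA1 stood at 3.26 and 2.02 RPKM and was the only 1 of 14 above 1 RPKM, as was SYT1 (1.71 ± 0.214 RPKM) of 16 neuron and muscle markers. PRAME, an antigen otherwise of testis, stood at 13.4 and 10.9 RPKM. Of 20 cancer-testis genes chosen only 11 had a row, and the other 10 of these were below 1 RPKM.

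Positional identity was read from the HOX clusters, whose genes are switched on in order along the body axis. At least 1 RPKM was reached by 9 of 11 HOXA rows, 8 of 9 HOXB rows, 6 of 9 HOXC rows and 5 of 9 HOXD rows. Without overlapped genes these counts were 3, 7, 5 and 3, so that most of the HOXA count rests on overlapped genes. The highest member was HOXA9 (overlapped) at 33.3 and 29.1 RPKM among HOXA genes, HOXB7 at 31.6 and 27.0 RPKM among HOXB genes, HOXC10 at 10.8 and 9.51 RPKM and HOXD10 at 6.13 and 7.03 RPKM. HOXC12 had 0 counts in both libraries, and HOXD12 had 2 in each.

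Keratins, the filaments of epithelial cells, pair a type I with a type II chain. Of 21 type I rows 5 reached 1 RPKM, and of 23 type II rows 3 did. KRT19 was highest at 257 and 212 RPKM (234 ± 32.2), KRT8 followed at 205 and 167 RPKM (186 ± 27.0) and KRT18, its usual partner in simple epithelia, at 77.9 and 68.4 RPKM (73.2 ± 6.70), and these ranges did not overlap. KRT80, a type II keratin of many epithelia, had 42.0 and 54.9 RPKM and KRT7 14.7 and 10.3 RPKM. The remaining type I chains above 1 RPKM were KRT10 (4.16 ± 0.371 RPKM), KRT15 (2.37 ± 0.0398 RPKM) and KRT17 (1.65 ± 0.0853 RPKM). The basal pair of stratified epithelia was near 0, with 3 and 5 counts for KRT5 and 4 and 2 counts for KRT14. KRT25, KRT27, KRT36, KRT38 and KRT77 had 0 counts in both libraries.

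The same cells held vimentin. VIM, the filament of mesenchymal cells, stood at 138 and 134 RPKM (136 ± 2.76) with 59040 and 40747 counts, below KRT8 and KRT19 and above KRT18 in both libraries, and 24.4% of its bases are shared with a gene on the other strand. The nuclear lamins LMNB2 (83.5 ± 0.734 RPKM), LMNA (69.4 ± 3.05 RPKM) and LMNB1 (46.3 ± 0.358 RPKM) did not overlap each other. NES, the filament of progenitor cells, had 16.8 and 12.7 RPKM, and NEFL, a neurofilament chain, had 15.1 and 11.5 RPKM. SYNM and BFSP1 (both overlapped) stood at 12.9 ± 0.791 and 11.1 ± 1.57 RPKM. GFAP, the glial filament, had 2.5 and 1.82 RPKM, while the muscle filament DES had 0.225 and 0.193 RPKM. In all, 10 of 14 other filament genes reached 1 RPKM.

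Junction genes of both epithelial and mesenchymal kind were present. TJP1 (28.1 ± 0.433 RPKM) and DSP (27.9 ± 0.215 RPKM), scaffolds of tight junctions and desmosomes, overlapped. CDH2, N-cadherin, had 24.7 RPKM in each library, EPCAM, an epithelial adhesion molecule, 24.6 and 24.4 RPKM, and CLDN1 22.3 and 26.0 RPKM. CDH1, E-cadherin, was lower at 4.13 and 3.64 RPKM (3.88 ± 0.341), and CDH6, a cadherin of proximal tubule and of many renal carcinomas, had 4 and 2 counts. Of the repressors of epithelial genes, ZEB1 stood at 7.61 and 8.27 RPKM, ZEB2 at 5.89 and 6.88 RPKM and SNAI2 at 1.67 and 1.58 RPKM. SNAI1 had 0.900 and 0.442 RPKM, and TWIST1 had 6 counts in library 1 and none in library 2. The epithelial splicing factors ESRP1 and ESRP2 lay at 0.0743 ± 0.00671 and 0.273 ± 0.0634 RPKM, and GRHL2, an epithelial transcription factor, had 16 counts in library 1 and 0 in library 2. CDH5, the endothelial cadherin, had 0 counts in both. In this list 14 of the 26 rows reached 1 RPKM (53.8%), beside 60.6% of protein-coding genes.

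Basement membrane, the sheet under epithelia, was represented by its core chains. Of 23 rows 19 reached 1 RPKM. COL4A2 at 422 and 416 RPKM (419 ± 4.69) and COL4A1 at 374 and 324 RPKM (349 ± 35.1), chains of the common type IV collagen, did not overlap. The laminin chains LAMB1 (118 ± 1.31 RPKM) and LAMC1 (101 ± 0.619 RPKM) followed, then COL18A1, the source of endostatin, at 46.1 and 47.2 RPKM. The alpha chains that complete laminins, named after their values had been seen, were lower, with LAMA3 at 9.01 and 11 RPKM, LAMA1 at 5.72 and 6.29 RPKM and LAMA5 at 4.92 and 4.51 RPKM. The other type IV collagen chains, named in the same way, ran from 0.487 ± 0.00893 RPKM for COL4A6 to 2.87 ± 0.0846 RPKM for COL4A5. COL15A1 had 0 counts in both libraries.

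In the interstitial matrix list 24 of 45 rows reached 1 RPKM (53.3%), beside 60.6% of protein-coding genes. THBS1, thrombospondin 1, led at 250.3 and 265 RPKM (258 ± 10.3), followed by SPARC at 187 and 169.8 RPKM (178 ± 12.1), the crosslinking enzyme LOXL2 at 83.2 and 80.5 RPKM, the proteoglycan VCAN at 35.9 and 40.5 RPKM and P4HA1, a prolyl hydroxylase of collagen, at 28.3 and 18.6 RPKM. The fibrillar collagens, named after their values had been seen, were uneven. COL1A1, the main chain of type I collagen, had 4.96 and 4.30 RPKM, whereas its partner COL1A2 had 20 and 8 counts and COL3A1 had 26 and 22 counts. Type VI collagen was uneven too, with COL6A1 (16.7 ± 0.664 RPKM) and COL6A2 (22.3 ± 2.07 RPKM) far above COL6A3 (0.0413 ± 0.00227 RPKM). COL2A1, POSTN and MGP had 0 counts in both libraries.

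Secreted proteases and their inhibitors reached 1 RPKM in 17 of 28 rows (60.7%), near the 60.6% of protein-coding genes. ADAM9, a membrane protease that also has a secreted form, had 194 and 215 RPKM (205 ± 15.4), and the cathepsin CTSL 103 and 98.8 RPKM (101 ± 2.88). PLAU, urokinase, and CTSD (both overlapped) stood at 35.5 ± 3.96 and 35.9 ± 1.6 RPKM. The matrix metalloproteinase genes MMP2, MMP9 and MMP1, chosen after their values had been seen, were each below 0.2 RPKM in both libraries.

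Growth factors and their binding proteins reached 1 RPKM in 31 of 51 rows (60.8%), near the 60.6% of protein-coding genes. CCN1, a matricellular protein, was at 188 and 139 RPKM (163 ± 34.7), its relative CCN2 at 48.6 and 39.8 RPKM, and the heparin-binding factor MDK, midkine, at 124 and 116 RPKM. The binding proteins IGFBP7 (39.1 ± 0.305 RPKM) and IGFBP6 (38.3 ± 6.35 RPKM) overlapped. BMP7, a factor of nephron development, and FST, follistatin, had 0 counts in both libraries, which allows up to 0.00938 and 0.0171 RPKM in library 2.

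Cytokines and chemokines reached 1 RPKM in 15 of 31 rows (48.4%), beside 60.6% of protein-coding genes. MIF (overlapped) was listed at 146 and 134 RPKM, the IL6 family cytokine LIF at 26.4 and 27.1 RPKM, IL32 at 30.4 and 19.9 RPKM, IL18 at 6.50 and 7.24 RPKM and CXCL2 at 6.04 and 3.01 RPKM. CXCL12 had 0 counts in both. The log2 difference of library 2 against library 1 was -0.62 for IL32 and -1.01 for CXCL2.

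Tumor suppressors of renal cancer were transcribed. Of 18 rows 17 reached 1 RPKM and all 18 lay below 30 RPKM, with a median of 9.02 RPKM. SMARCB1, a chromatin remodeler subunit, stood at 23.2 and 25.1 RPKM (24.1 ± 1.36), SDHA, of succinate dehydrogenase, at 22.2 and 20.7 RPKM, and BAP1, a deubiquitinase lost in aggressive clear cell tumors, at 16.5 and 18 RPKM. FH, fumarate hydratase, had 16 and 16.1 RPKM, the histone methyltransferase SETD2 13 and 14.7 RPKM and NF2, merlin of the Hippo pathway, 13.7 and 14 RPKM. VHL, the ligase subunit that marks hypoxia-inducible factors for decay, had 9.77 and 10.9 RPKM (10.3 ± 0.795), and its partner ELOC 9.62 and 9.82 RPKM. PBRM1, a remodeler subunit near BAP1, had 5.69 and 6.73 RPKM. KDM6A, a histone demethylase, was the only member below 1 RPKM, at 0.828 and 0.800 RPKM. RNA levels say nothing of sequence changes in these genes.

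Of 41 other tumor suppressors 36 reached 1 RPKM. CDKN1B, the inhibitor p27 of cyclin-dependent kinases, was highest at 81.1 and 73.4 RPKM (77.2 ± 5.45). SMARCA4 (29.4 ± 1.65 RPKM), the secreted WNT inhibitor DKK3 (28.8 ± 1.8 RPKM) and the mismatch repair gene MSH6 (26.4 ± 1.96 RPKM) came next, and DKK3 overlapped both others. CDKN1A, p21, had 14.7 and 14.2 RPKM. RB1, the retinoblastoma protein gene, stood at 4.16 and 3.99 RPKM and FBXW7, the substrate receptor of an SCF ubiquitin ligase, at 3.41 and 3.90 RPKM. The 5 members below 1 RPKM were FHIT (0.362 ± 0.0761 RPKM), the Hedgehog receptor PTCH1 (0.332 ± 0.00996 RPKM), CDKN2A (0.166 ± 0.0293 RPKM), CDKN1C (0.163 ± 0.0456 RPKM) and MTAP (0.0132 ± 0.00228 RPKM).

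MTAP, an enzyme that salvages methionine, was the only tumor suppressor row below 0.1 RPKM, with 18 and 10 counts on 14617 exonic bases at chr9:21802543-21937651. Its neighbour CDKN2A, which codes for p16 and p14ARF, had 67 and 37 counts. The low level ran on through 7 consecutive protein-coding genes of the table, MLLT3, FOCAD, HACD4, KLHL9, IFNE, MTAP and CDKN2A, each below 0.2 RPKM, at chr9:20341665-21995301 of GRCh38 over 1653637 bases. HACD4 and IFNE had 0 counts in both libraries, FOCAD had 4 and 0 and KLHL9 had 6 and 2. Beyond this stretch, SLC24A2 on the left had 0.372 and 0.470 RPKM and RPS6 further left 357 and 387 RPKM. CDKN2B, the p15 inhibitor gene which lies to the right of CDKN2A with 7601 bases between them, stood at 8.38 and 8.10 RPKM (8.24 ± 0.199) with 2826 and 1940 counts. CAAP1 further right had 15.0 RPKM in each library. The tables hold no DNA measurement, and the state of the DNA in this stretch was not tested.

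**Figure D3:**
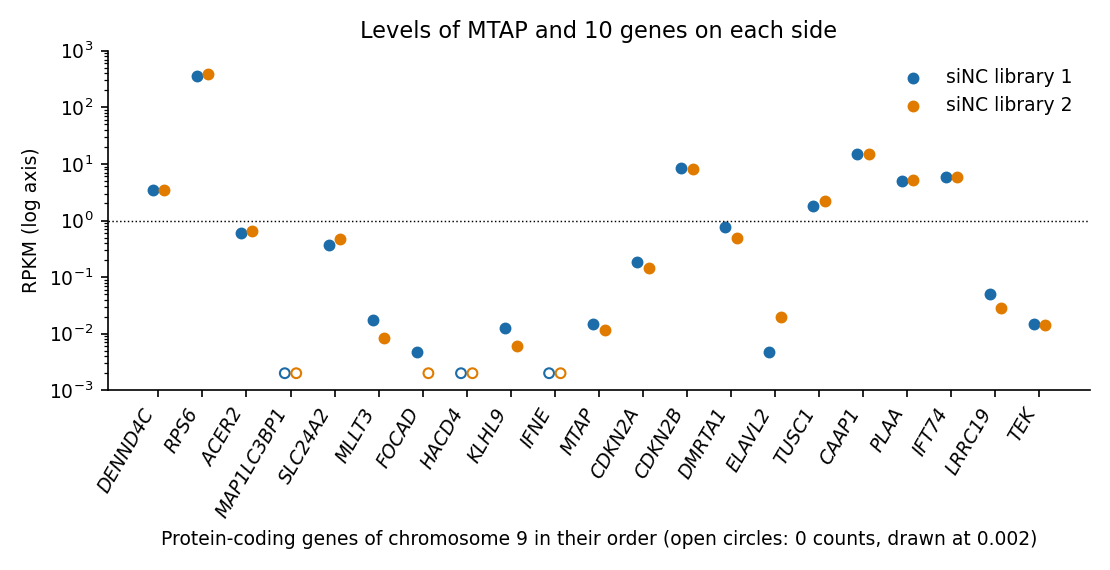
RPKM (log axis) of MTAP and the 10 nearest protein-coding genes on each side, in chromosomal order, with blue for siNC library 1, orange for siNC library 2, open circles for 0 counts and a dotted line at 1 RPKM. The 7 genes from MLLT3 to CDKN2A lie below 0.2 RPKM in both libraries, and the next gene, CDKN2B, lies at 8.38 and 8.10 RPKM.

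Runs of low genes were not particular to chromosome 9. Of 17035 protein-coding genes on the autosomes and X, 4510 were below 0.2 RPKM, and 26 runs of 7 or more consecutive such genes were found. The longest was the protocadherin stretch from PCDHA1 to PCDHB7 on chromosome 5 with 22 genes, followed by 15 genes from CLEC11A to KLK14, which include kallikreins, on chromosome 19. On chromosome 17, a run of 14 genes went from KRT12 to KRT13, both type I keratins. Its highest member was the hair keratin-associated gene KRTAP2-3 at 0.156 RPKM on the mean. On chromosome 12, 10 genes from KRT83 to KRT73 formed a type II stretch.

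Gene families known from other tissues were mostly silent or low. All 62 olfactory receptor rows were below 1 RPKM and 35 had 0 counts in both libraries, or 56.5% beside 14.9% of all rows and 5.38% of protein-coding rows. Of 13 hair keratin-associated proteins 8 had 0 counts, and of 5 beta-defensins, antimicrobial peptides, 2 did. TAS2R14 (overlapped) was the only taste receptor of 17 above 1 RPKM, at 2.37 and 2.13 RPKM. OR2A1 and OR2A42 (both overlapped), at 0.827 ± 0.0901 and 0.652 ± 0.0282 RPKM, were the highest olfactory receptors.

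Promoter CG content, which the choice of samples did not use, was higher in genes detected at 1 RPKM than in silent genes. CG pairs were counted in the 250 bases before the 5′ end of 17042 protein-coding genes in hg38. The median was 5 pairs for genes with 0 counts, 6 above 0 and below 0.1 RPKM, 13 from 0.1 to below 1, 18 from 1 to below 10, and 17 both from 10 to below 100 and at 100 or more, beside 14 for all. The share with 5 or fewer pairs was 55.7% among genes with 0 counts and 14.7% at 100 RPKM or more, beside 24.8% for all. With the starts given by RefSeq in place of the 5′ ends of the table, available for 13101 genes, these shares were 52.3%, 4.13% (10 of 242 genes) and 17.2%. TATAAA was searched on both strands of the windows, and a match is a description of letters only. Before the 5′ ends of the table it was found in 13.7% of windows of genes with 0 counts. It was in 5.91% of those from 1 to below 10 RPKM and 6.69% at 100 RPKM or more, beside 8.02% of all. With RefSeq starts these shares were 16.7%, 4.53%, 8.68% and 7.46%. The class at 100 RPKM or more thus lay below the share of all with the former starts and above it with the latter.

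Single genes stood apart from these medians. IGFN1 at 978 RPKM and SPP1 at 328 RPKM had few CG pairs, 4 and 3 in 250 bases, and had the same numbers at the start given by RefSeq. The number depended on the start for other abundant genes, since COL4A2 had 1 pair before the 5′ end in the table and 40 before the RefSeq start, and MT2A had 5 and 32. The window of LRP2 among the sequences printed at the start held 13 pairs in 150 bases at a mean level of 0.00208 RPKM. AQP2 held TATAAA in its 250 bases, and its level was near 0.

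**Figure D4:**
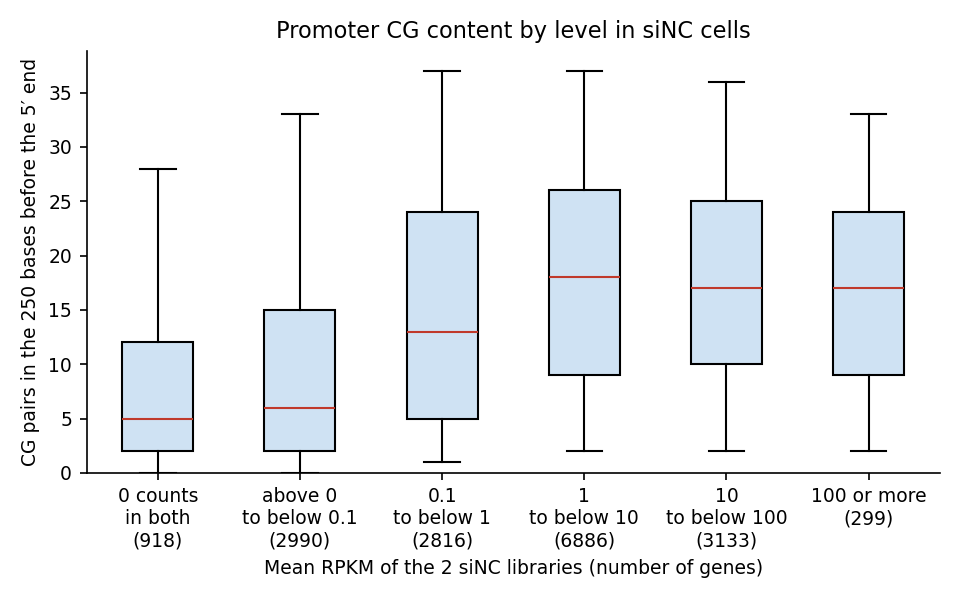
CG pairs in the 250 bases before the 5′ end of 17042 protein-coding genes, by class of mean RPKM over the 2 siNC libraries, with the number of genes in parentheses, boxes from the first to the last quartile, a red line at the median and whiskers from the 5th to the 95th percentile. The median is 5 pairs at 0 counts, 18 pairs at 1 to below 10 RPKM and 17 in the classes above.

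The libraries gave near-equal levels for most genes. Across 23022 genes with at least 10 counts in total, Pearson's r of log2(RPKM + 1) was 0.995 and Spearman's rho 0.989, both across genes, which are not replicates. The median absolute log2 difference was 0.08. The share of genes within 1.5-fold was 53.1% above 0 and below 0.1 RPKM, 69.0% from 0.1 to below 1, 96.2% from 1 to below 10, 99.2% from 10 to below 100 and 99.5% from 100 to below 1000 RPKM, among genes with counts in both. The chi-square of the counts of the 23022 genes was 19.0 per degree of freedom against counting error alone, so the libraries differed by more than that error. The common biological coefficient of variation from edgeR was 0.0962 over 19856 genes.

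Few well-counted genes differed by more than 2-fold. Of 14452 genes with at least 100 counts in both libraries, 98.5% were within 1.5-fold, 12 were over 2-fold lower in library 2 and 2 were over 2-fold higher. TXNIP, a thioredoxin-binding protein that responds to glucose, had 10.3 RPKM in library 1 and 1.67 in library 2, a log2 difference of -2.62 as library 2 against library 1. FOS (2.92 and 0.544 RPKM, log2 difference -2.42) and EGR1 (3.81 and 1.46 RPKM, -1.39), immediate early genes that respond to serum and stress within minutes, were also lower in library 2. So were CCL2 (4.96 and 1.91 RPKM, -1.38), a chemokine, and IL6 (overlapped, 5.89 and 2.44 RPKM, -1.27). The cytokine list as a whole had a median of -0.28 over its 16 members with that many counts, 13 of them lower in library 2, beside a median of 0.00 for all such genes. This is 1 library against 1, so the difference has no replicate check and its source was not tested.

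The genes at the other end were ETV1, an ETS transcription factor, at 0.155 and 0.395 RPKM (log2 difference 1.35), ZFPM2-AS1 (1.12), ABHD17C (0.96), PLPP4 (0.94) and RP11-403P17.3 (overlapped, 0.90). All 5 had between 120 and 294 counts in each library. The median difference by exonic length ran from -0.04 for 1000 to below 2000 bases to 0.05 at 8000 bases or more, and 0.04 below 500 bases.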

How the data were processed

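Of 4 sequenced samples the 2 siNC libraries were analysed, grouped by their titles. According to the submitters' notes and the methods, 2 micrograms of RNA went into stranded libraries, reads were trimmed with Trimmomatic 0.36, aligned to GRCh38 with STAR and counted with featureCounts of Subread 1.5.1. The annotation release and the strand setting are not given in the sources used here. The authors deposited raw read counts per gene, with exons and exonic length, and RPKM of the same genes. The deposited RPKM equalled the deposited count over length and column total to within 1e-05% for 16011 genes with over 50 counts in both libraries. Columns of the siPRR11 samples were not used, and 2 symbols occurred more than once.

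Means and SDs of RPKM, exon overlap, ratios and correlations were computed in Python 3.11.15 with pandas 2.3.3, numpy 2.4.6 and scipy 1.17.1. edgeR 4.0.16 in R 4.3.3 served only for TMM factors and the common dispersion of the counts, and was tested on simulated data. No test between groups was made. A gene was called detected at a mean of 1 RPKM, and a fold on the log scale of agreement used a pseudocount of 1. Depth was 83068637 and 59003839 counted reads, and a count of 0 was given the limit of 3 counts. Gene classes came from RefSeq and CG pairs from hg38, in which 1150 RefSeq promoter rows were compared and 0 differed.

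The members of 35 lists, and the lists, were chosen with earlier results of these data known. Of the list symbols, 40 had no row and were not analysed here. Named genes were the 25 highest, the 5 highest and the silent members of each list, any member of the tumor suppressor, lineage, filament and adhesion lists, the 5 largest ratios each way, the 5 rows on each side of a tumor suppressor below 0.1 RPKM, and PRR11. Genes named beyond this rule were chosen after their values were seen, as were the protein-coding neighbours of MTAP, the low runs, the order of nuclear genes with at most 20% overlap and the RefSeq starts for promoters. Other thresholds, pseudocounts, units, normalizations and single libraries were tried. Some genes within the rule are not reported here.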

Additional observations from a re-analysis of the deposited data

How the results depend on the processing

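With a threshold of 5 RPKM, 7122 genes were detected in place of 13829, and at 0.5 RPKM 16181 were. TPM gave 17510 and CPM 15736 at the same threshold of 1, and leaving out overlapped genes gave 10676. Each library alone gave 13823 to 13869 detected genes, and 7470 to 8710 genes with 0 counts in place of 5430 in both. The 25 highest genes held 24.5% of RPKM (24.5 to 24.6 with a library left out) and 6.14% of the counts. The 25 genes with the most counts, 9 of them shared with the former, held 11.7% of the counts. The 25 highest genes were 12.7% of RPKM after mitochondrial genes were left out and, chosen after seeing the data, 15.0% after overlapped genes were left out too. Pearson's r of 0.995 became 0.990 with a pseudocount of 0.1, 0.996 without a filter and 0.993 for genes of at least 1 RPKM. Spearman's rho became 0.943 and 0.988 under the same filters, and the median absolute log2 difference of 0.0834 became 0.152 with the smaller pseudocount, 0.0551 without a filter, 0.0987 at 1 RPKM or more and 0.0835 with RLE factors. The coefficient of variation lay between 0.0962 and 0.0991 under other normalization and filters. The number of members detected stayed within 1.5-fold in 35 of 35 lists with either library left out, in 29 at 0.5 RPKM, in 19 at 5 RPKM and in 31 without overlapped genes, the exceptions being the HOXA, HOXD, blood cell and taste receptor lists. With RefSeq starts the median of CG pairs ran from 5 at 0 counts to 22 at 100 RPKM or more. Depth limits levels below 0.1 RPKM. Of the 9393 genes above 0 and below 0.1 RPKM, 4478 had counts in both libraries, and 53.1% of these were within 1.5-fold. No paired analysis was possible because the results are levels within siNC and come from no test between groups.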
